A study of Homo sapiens with 7 samples.

Results

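The clustered histone genes are the genes whose deposited symbol begins HIST1H, HIST2H, HIST3H or HIST4H. The deposited expression table held 73 of them among 23710 genes: 6 encode the linker histone H1, 18 encode H2A, 20 encode H2B, 14 encode H3 and 15 encode H4. The annotation placed 69 of the 73: 53 on chromosome 6, 15 on chromosome 1 and 1 on chromosome 12. The mean normalized count over the 4 RNA libraries was at least 50 for 52 of the 73 (71.2%), against 12578 of all genes (53.0%), and these 52 and 12578 genes are called tested here. The cells were SNU398, an established human hepatocellular carcinoma line, and each culture received 30 µM of 1 peptide for 8 h before total RNA was taken. The 4 peptides were PEN-FFW, PEN-WT, PEN-MUT and PEN, with 1 library for each. PEN is penetratin, a carrier peptide that crosses cell membranes, and from what is known of the study it is the shared carrier of the other three. As background from the study, PEN-WT adds the piece of the transcription factor SALL4 that contacts RBBP4, PEN-FFW adds an altered piece made to bind RBBP4 more tightly, and PEN-MUT adds a mutated piece that serves as a control. The question is whether the clustered histone genes were set apart by any of the peptides at this dose and time.

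Histones package DNA: H2A, H2B, H3 and H4 form the protein core of the nucleosome, and H1 binds the DNA between nucleosomes. Most genes of the clusters are replication-dependent, which means that their mRNA is made in bulk while the cell copies its DNA and is destroyed when copying ends. NPAT, a coactivator activated by cyclin E and CDK2, drives their transcription. Their mRNAs have no introns and usually no poly(A) tail, and end in a short stem-loop that the protein SLBP binds to direct 3′ end cutting, translation and decay. A few members, HIST1H1C, HIST1H2BK and HIST2H2BE among them, are known to make polyadenylated forms as well.

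The stem-loop is the sequence that these mRNAs have in common, so it is shown for the members on which the results turn. Each line gives 26 bases of the mRNA strand from the GRCh37 genome, written as DNA, with the 16-base stem-loop in capitals. The position and strand stand before each sequence.
HIST1H1E (chr6:26157318-26157343, plus strand): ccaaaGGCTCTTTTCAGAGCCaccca
HIST1H2AG (chr6:27101289-27101314, plus strand): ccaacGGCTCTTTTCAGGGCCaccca
HIST1H2BK (chr6:27114140-27114165, minus strand): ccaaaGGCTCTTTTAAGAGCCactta
HIST1H2BM (chr6:27783242-27783267, plus strand): ccaaaGGCTCTTTTCAGAGCCgtcca
HIST1H3B (chr6:26031820-26031845, minus strand): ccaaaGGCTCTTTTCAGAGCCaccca
HIST1H4C (chr6:26104540-26104565, plus strand): ccaaaGGCCCTTTTCAGGGCCgctca
HIST1H4H (chr6:26285354-26285379, minus strand): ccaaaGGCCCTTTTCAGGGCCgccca
HIST1H1D (chr6:26234440-26234465, minus strand): taaacGGCTCTTTTCAGAGCCaccca
The first 7 belong to members with abundant reads, and the last to a member at the floor of the table in all 4 libraries. A 16-base stem-loop of this form, with at least 5 of 6 stem pairs, was found within 150 bases after the stop codon of 64 of the 67 members searched (95.5%), against 8 of 3872 other genes (0.207%). It was not matched in HIST1H3E, HIST1H4L and HIST1H2BI. The core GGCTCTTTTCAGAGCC was the commonest, in 39 members of the H1, H2A, H2B and H3 classes. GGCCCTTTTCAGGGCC in 9 members and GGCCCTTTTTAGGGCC in 4 were found in H4 genes only, among the 64. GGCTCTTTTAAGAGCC was in 9 members of the H1, H2A, H2B and H3 classes.

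Many H2A and H2B genes lie head to head and share 1 stretch of promoter. The promoter between HIST1H2AG and HIST1H2BJ, the most abundant H2A gene and an abundant H2B gene, is shown first, and that of HIST1H4H, the tested member with the lowest difference between PEN-FFW and PEN, second. Each is the RefSeq sequence of the GRCh38.p14 build, 250 bases before and 50 after the gene's start, in the direction of the gene, with 3 motifs in capitals. The motifs are the octamer ATTTGCAT, to which the factor OCT1 is known to bind, the CCAAT box and TATAAA, each on either strand, and neighbouring capitals can belong to 2 motifs that overlap.
HIST1H2AG (chr6:27132793-27133092, plus strand): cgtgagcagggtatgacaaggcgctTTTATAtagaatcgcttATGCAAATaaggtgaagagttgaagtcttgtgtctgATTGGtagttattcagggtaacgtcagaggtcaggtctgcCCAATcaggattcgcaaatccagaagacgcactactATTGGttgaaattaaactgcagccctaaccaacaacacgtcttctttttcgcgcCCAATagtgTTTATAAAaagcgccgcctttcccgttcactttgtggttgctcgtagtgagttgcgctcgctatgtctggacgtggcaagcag
HIST1H4H (chr6:26285485-26285784, minus strand): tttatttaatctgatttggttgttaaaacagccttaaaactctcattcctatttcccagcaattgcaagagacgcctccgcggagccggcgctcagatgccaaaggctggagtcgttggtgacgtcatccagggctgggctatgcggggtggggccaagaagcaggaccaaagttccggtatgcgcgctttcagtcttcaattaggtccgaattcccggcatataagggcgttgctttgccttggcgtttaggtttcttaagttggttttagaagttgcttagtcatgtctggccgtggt
Of the 73 members, 60 matched a RefSeq promoter. The octamer was in 73.3% of the H2A promoters, 75% of the H2B promoters and 8.33% of the H3 promoters, in none of the 6 H1 or 11 H4 promoters, and in 1.77% of all 35116 promoters. Of the 12 H3 promoters, the 1 with it was that of HIST1H3D, whose RefSeq window is the same stretch as that of the H2A gene HIST1H2AD. CCAAT was in 85% of the members' promoters but 18.2% of the H4 ones, against 34.6% of all promoters. TATAAA was in 66.7%, against 11.5% of all. None of the 3 motifs was in the HIST1H4H window, which says only that these letters are not there.

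Read totals in genes above the floor were 27347377 for PEN-FFW, 40717633 for PEN-WT, 32043544 for PEN-MUT and 37784093 for PEN. A normalized count is 2 raised to the deposited log2 value, and values under 5 had been set to 5, which is called the floor here and stands for at most 5 to 6.44 reads depending on the library. Because each peptide had 1 library, no test between peptides was possible, and the ± values are counting standard errors that leave out variation between cultures. Differences are log2(normalized count + 10) of the first library minus that of the second, relative to the median tested gene. That median gene stood 0.27 lower in PEN-FFW than in PEN as deposited, and -0.30 from both PEN-MUT and PEN-WT, while PEN-WT and PEN-MUT stood 0.03 and 0.02 from PEN. Normalized counts are printed as deposited and carry that shift, which the differences do not. The label was set beside its markers: of 9 hepatocyte and hepatocellular carcinoma genes, GPC3 (998 normalized counts with PEN-FFW, 1253 with PEN-WT, 1281 with PEN-MUT and 1250 with PEN) and ALB (83.1, 157, 139 and 122 in that order) were tested, APOA1 and AFP were above the floor at 18 or less, and TTR, SERPINA1, HNF4A, KRT8 and KRT18 were at the floor in all 4 libraries. The floor does not show that a gene is not expressed, since H3F3A, a histone gene that cells in general use, was at the floor in all 4 as well. Of 6 markers of other cell types, CD3E, PECAM1 and CDH5 were at the floor in all 4, and PTPRC, COL1A1 and DCN were tested. In the same order of libraries, DCN had 1355, 1819, 2153 and 1856 normalized counts, more than GPC3 in each library. PTPRC had 298, 362, 373 and 331, and COL1A1 had 221, 182, 156 and 127, both more than ALB in each library. These markers thus do not settle the cell type.

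Most tested histone genes were abundant in these cells. By normalized count, 26 of the 52 were in the highest 10% of tested genes and 43 were above the median tested gene. Per kilobase of transcript, the median of the 50 tested members with a known length was 9955 normalized counts, against 334 for the 12159 tested genes with one, and 43 of the 50 were in the highest 10% of tested genes. Among those with a length, HIST1H1C, HIST1H1E and HIST1H2AG led in PEN, with 27302, 29605 and 27295 normalized counts per kilobase in PEN-FFW and 39322, 37811 and 37087 in PEN. HIST4H4, the single member on chromosome 12, had 5411 per kilobase in PEN-FFW and 7319 in PEN, and HIST3H2A had 1023 in PEN-FFW and 1240 in PEN. Within the clusters the tested members thus ranged widely, from a mean normalized count of 57.1 for HIST1H1T, a linker histone known from the testis, to 29861 for HIST1H1E, and 45 members were at 1000 or more. Just inside the limit of 50 were HIST1H1T and HIST1H3J (68.5), and just outside it were HIST2H2BC (17.1), a pseudogene, and HIST1H2AD (6.96).

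**Figure D1:**
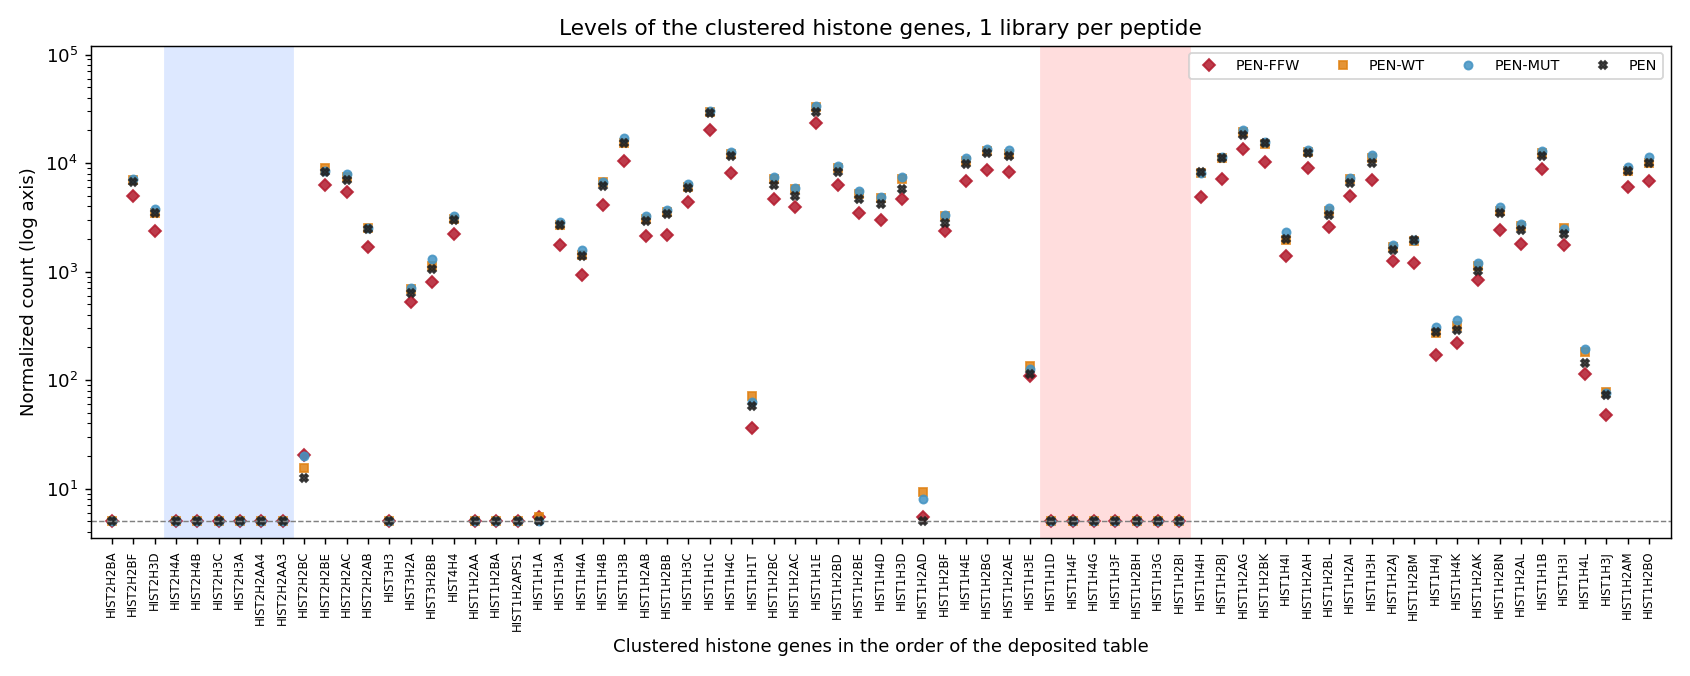
Normalized counts (log axis) of all 73 clustered histone genes in the order of the deposited table, with 1 symbol per library (PEN-FFW, PEN-WT, PEN-MUT, PEN) and the floor of 5 as a dashed line. The 6 HIST2 rows shaded blue and the 7 HIST1 rows shaded red are at the floor in all 4 libraries, and in most tested members the PEN-FFW symbol is the lowest of the 4; the values are as deposited, with the median tested gene 0.27 lower in PEN-FFW than in PEN.

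Of the 21 members that were not tested, 18 were at the floor in all 4 libraries, and they were not scattered. A run of 7 neighbouring HIST1 rows, HIST1H1D, HIST1H4F, HIST1H4G, HIST1H3F, HIST1H2BH, HIST1H3G and HIST1H2BI, had no value above the floor in any library; the 6 that could be placed span chr6:26234440-26273640 of GRCh37. The gene on one side, HIST1H3E, had 109 normalized counts with PEN-FFW, 135 with PEN-WT and 126 with PEN-MUT, against 115 in PEN. The gene on the other side, HIST1H4H, had 4898 in PEN-FFW, 8066 with PEN-WT and 8110 with PEN-MUT, against 8202 in PEN. The step from counted genes to genes at the floor was thus sharp on one side, and the same in all 4 libraries. Whether these 7 genes are not expressed in the cells or were left uncounted cannot be told apart here, since the annotation behind the counts is not given in the sources used here. Of the 6 placed genes, 5 shared no 50-base coding stretch with another member and HIST1H2BI shared 3.34% of its stretches. A second run, on chromosome 1 (chr1:149804221-149832725), held HIST2H4A, HIST2H4B, HIST2H3C, HIST2H3A, HIST2H2AA4 and HIST2H2AA3. These are 3 pairs of copies, and each shared 100% of its 50-base coding stretches with another member, so a count of 0 cannot be told apart from reads that matched both copies and were left out. The other 5 at the floor were HIST1H2AA, HIST1H2BA and the pseudogene HIST1H2APS1 at the start of the HIST1 cluster, HIST2H2BA, and HIST3H3, a testis form of H3. HIST1H1A, a linker histone, had at most 7 reads in any library, and HIST1H2AD, whose RefSeq promoter window is also that of HIST1H3D, had at most 12.

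In the PEN-FFW library the clustered histone genes were slightly but widely lower than in PEN. Of the 52 tested members, 50 were below the median gene, and their median was -0.19, against 0 by construction for all tested genes, whose quartiles were -0.15 and 0.21. No member was 1.5-fold higher or lower, against 7.24% and 0.437% of tested genes. At 1.2-fold, a limit added after the values were seen, 14 members were lower, against 9.87% of tested genes, and none was higher, against 20.8%. For 42 of the 52 the 95% counting interval lay below 0, against 30.9% of tested genes, and for none above it, against 30.6%; these intervals are narrower for abundant genes, as most members are. The 1.2-fold lower count was 8 of 52 against genes of similar abundance, 4 of 50 against genes of similar transcript length and 28 of 50 against genes of similar GC content. The share of all tested genes past the limit was not counted on those scales. Whether these counts exceed it thus cannot be read. The class medians were -0.19 for H1, -0.17 for H2A, -0.18 for H2B, -0.23 for H3 and -0.25 for H4. They lie close together, and the members within a class differ by more than the classes do.

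**Figure D2:**
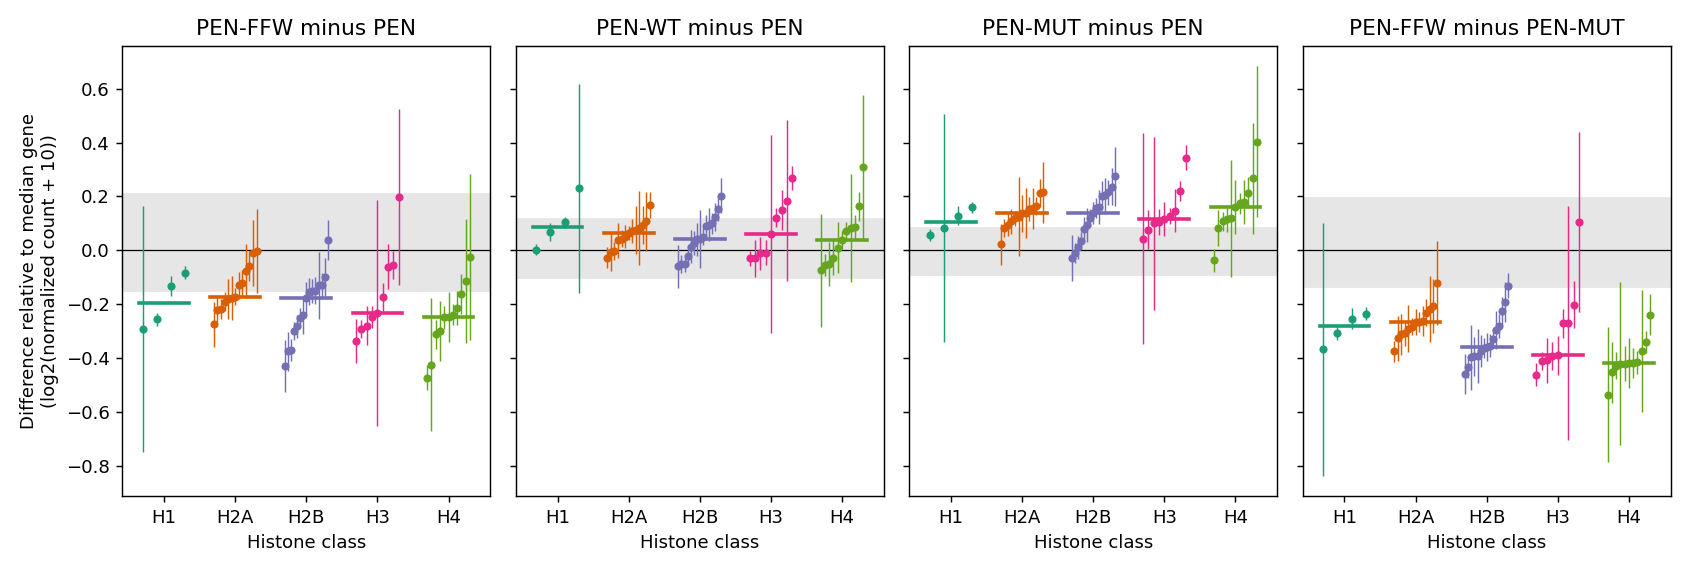
Differences of the 52 tested members on the log2(normalized count + 10) scale, relative to the median tested gene, by histone class in 4 pairs of libraries; each point is 1 gene with its 95% counting interval, the coloured bars are class medians and the grey band runs between the quartiles of all tested genes. Class medians are below 0 for PEN-FFW against PEN and PEN-MUT, and above 0 for PEN-MUT against PEN, with 1 library per peptide.

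Among the linker histones, HIST1H1E had 23299 normalized counts with PEN-FFW, 32661 with PEN-WT and 33728 with PEN-MUT, against 29757 in PEN (PEN-FFW minus PEN, -0.08 ± 0.01). HIST1H1C had 19957 in PEN-FFW, 29397 with PEN-WT and 30375 with PEN-MUT, against 28744 in PEN (-0.26 ± 0.01). HIST1H1B had 8768 in PEN-FFW, 12419 with PEN-WT and 12863 with PEN-MUT, against 11591 in PEN (-0.13 ± 0.02). All 3 are somatic linker histones that compact chromatin, and in all 3 PEN-FFW was the lowest library and PEN-MUT the highest, as deposited. The fourth tested linker histone, HIST1H1T, had 36.0 in PEN-FFW, 71.4 with PEN-WT and 63 with PEN-MUT, against 57.9 in PEN. Its counting error is too wide for its order to be read (PEN-WT minus PEN, 0.23 ± 0.20).

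The most abundant H2A gene, HIST1H2AG, had 13456 normalized counts with PEN-FFW, 19506 with PEN-WT and 20147 with PEN-MUT, against 18284 in PEN (-0.17 ± 0.02). HIST1H2AH had 8960.5 in PEN-FFW, 12568 with PEN-WT and 13245 with PEN-MUT, against 12332 in PEN (-0.19 ± 0.02). HIST1H2AE had 8213 in PEN-FFW, 12129.7 with PEN-WT and 13107 with PEN-MUT, against 11520.4 in PEN (-0.22 ± 0.02). These 3 genes encode near-identical core H2A proteins and stood at similar distances from the median gene. HIST1H2AK stood nearer to the median gene, with 836 in PEN-FFW, 1121 with PEN-WT and 1201 with PEN-MUT, against 1018 in PEN (-0.0099 ± 0.06). HIST3H2A, in the small cluster on chromosome 1, had 522 in PEN-FFW, 685 with PEN-WT and 701 with PEN-MUT, against 632 in PEN (-0.0028 ± 0.08). All 13 tested H2A genes were below the median gene, and the counting interval covered 0 in these last 2 and in HIST1H2AJ (-0.08 ± 0.05).

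Among the H2B genes, HIST1H2BK had 10209.5 normalized counts with PEN-FFW, 14948 with PEN-WT and 15761 with PEN-MUT, against 15152 in PEN (-0.30 ± 0.02). HIST1H2BG had 8592 in PEN-FFW, 13043 with PEN-WT and 13591 with PEN-MUT, against 12334 in PEN (-0.25 ± 0.02). HIST1H2BJ had 7171 in PEN-FFW, 11028 with PEN-WT and 11276 with PEN-MUT, against 11192 in PEN (-0.37 ± 0.02). H2B pairs with H2A in the nucleosome, and these 3 abundant genes were lower by more than the class median. HIST1H2BM was the lowest H2B gene, with 1212 in PEN-FFW, 1934 with PEN-WT and 1963 with PEN-MUT, against 1974 in PEN (-0.43 ± 0.05). HIST1H2BB had 2175 in PEN-FFW, 3511 with PEN-WT and 3688 with PEN-MUT, against 3406 in PEN (-0.37 ± 0.04). HIST1H2BF went the other way by less than its counting error, with 2362 in PEN-FFW, 3267 with PEN-WT and 3322 with PEN-MUT, against 2779 in PEN (0.04 ± 0.04). HIST3H2BB had 804 in PEN-FFW, 1120.1 with PEN-WT and 1309 with PEN-MUT, against 1065 in PEN (-0.13 ± 0.06). The H2B class held both members far below the median gene and 1 at it, and its range, from -0.43 to 0.04, was wider than that of the H2A genes, from -0.27 to -0.0028.

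For H3, HIST1H3B had 10409 normalized counts with PEN-FFW, 15368 with PEN-WT and 17020 with PEN-MUT, against 15366 in PEN (-0.29 ± 0.02). HIST1H3H had 6977 in PEN-FFW, 11102 with PEN-WT and 11818 with PEN-MUT, against 9990.4 in PEN (-0.25 ± 0.02). HIST1H3D had 4647 in PEN-FFW, 7169 with PEN-WT and 7505 with PEN-MUT, against 5826 in PEN (-0.06 ± 0.03). HIST1H3D lay nearer to the median gene than the other 2. HIST1H3E, which borders the run at the floor and lacks a matched stem-loop, had the highest difference of all 52 (0.20 ± 0.17), on 118 to 174 reads in the 4 libraries. HIST1H3J, just inside the limit on the mean, had 48.0 in PEN-FFW, 77.6 with PEN-WT and 76 with PEN-MUT, against 72.2 in PEN (-0.23 ± 0.21).

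H4 is the most conserved core histone, and its class had the lowest median. HIST1H4C had 8122 normalized counts with PEN-FFW, 12125 with PEN-WT and 12650 with PEN-MUT, against 11567 in PEN (-0.24 ± 0.02). HIST1H4E had 6811 in PEN-FFW, 10473 with PEN-WT and 11182 with PEN-MUT, against 9766 in PEN (-0.25 ± 0.02). HIST1H4H, whose values stand above, had the lowest difference of the 52 members (-0.47 ± 0.02): PEN-FFW was low and the other 3 libraries lay close together. HIST1H4J had 169 in PEN-FFW, 271 with PEN-WT and 309 with PEN-MUT, against 279.6 in PEN (-0.42 ± 0.13). HIST1H4K had 219.7 in PEN-FFW, 314 with PEN-WT and 356 with PEN-MUT, against 289.7 in PEN. HIST1H4J and HIST1H4K share 100% of their 50-base coding stretches, so how their reads were divided is uncertain. HIST4H4 had 2229 in PEN-FFW, 3021 with PEN-WT and 3241 with PEN-MUT, against 3016 in PEN (-0.16 ± 0.04).

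In the PEN-MUT library the clustered histone genes were slightly higher than in PEN. The median was 0.13, 49 of the 52 were above the median gene, and the quartiles of all tested genes were -0.09 and 0.08. No member was 1.5-fold higher or lower, against 0.215% and 0.35% of tested genes. Against genes of similar GC content or transcript length, 2 were 1.2-fold higher, with no share of all tested genes counted on those scales. Relative to the median gene, 4 were 1.2-fold higher, against 4.06%. These 4 were HIST1H4L, HIST1H3D, HIST3H2BB and HIST1H4K. HIST1H4L, an H4 gene with no matched stem-loop, had 114 normalized counts with PEN-FFW, 183 with PEN-WT and 195 with PEN-MUT, against 143 in PEN (PEN-MUT minus PEN, 0.40 ± 0.14). HIST1H3D stood at 0.34 ± 0.02, HIST3H2BB at 0.27 ± 0.06 and HIST1H4K at 0.27 ± 0.11. At the low end were HIST1H4H (-0.04 ± 0.02), HIST1H2BM (-0.03 ± 0.04), HIST1H2BJ (-0.01 ± 0.02) and HIST2H2BE, which had 6258 in PEN-FFW, 9025 with PEN-WT and 8430 with PEN-MUT, against 8245 in PEN (PEN-MUT minus PEN, 0.01 ± 0.02). The class medians ran from 0.11 for H1 to 0.16 for H4.

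Relative to the median gene, the PEN-WT library lay closer to PEN. The members' median was 0.06, with 37 above the median gene and 15 below, and the quartiles of all tested genes were -0.10 and 0.12. Set against genes of similar GC content, the median was -2.91e-05, with 25 members above and 25 below, so the direction was lost. Against genes of similar abundance it was 0.090, with 45 above and 7 below. Against genes of similar transcript length it was 0.091, with 44 above and 6 below, and there PEN-WT was no closer to PEN than PEN-MUT was. No member was 1.5-fold higher or lower, against 0.827% and 0.374% of tested genes. The highest were HIST1H4L (0.31 ± 0.14), HIST1H3D (0.27 ± 0.02), HIST1H1T (0.23 ± 0.20) and HIST1H2BF (0.20 ± 0.03). The lowest were HIST1H4J (-0.07 ± 0.11), HIST1H2BM (-0.06 ± 0.04), HIST1H4H (-0.05 ± 0.02) and HIST1H2BJ (-0.05 ± 0.02). HIST1H3D and HIST1H2BF are the 2 of these 8 whose distance from 0 was over 5 counting errors.

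Dose and time were shared by all 4 peptides, so each pair can be set side by side, and 6 pairs were compared, without a test. Comparisons with PEN share the PEN library. The widest gap was between PEN-FFW and PEN-MUT: the members' median was -0.33, 51 of 52 were below the median gene, and the quartiles of all tested genes were -0.13 and 0.19. No member was 1.5-fold higher or lower in PEN-FFW than in PEN-MUT, against 7.24% and 0.0875% of tested genes, while 39 were 1.2-fold lower, against 6.27%. The count was 21 of 52 against genes of similar abundance and 11 of 50 against genes of similar transcript length. No share of all tested genes was counted on those scales. The class medians were -0.28 for H1, -0.27 for H2A, -0.36 for H2B, -0.39 for H3 and -0.42 for H4. HIST1H4J (-0.54 ± 0.13), HIST1H3H (-0.46 ± 0.02) and HIST1H2BB (-0.46 ± 0.04) were the lowest, and HIST1H3E was the single member above 0 (0.10 ± 0.17).

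Between PEN-FFW and PEN-WT the median was -0.26, with 51 of 52 members below the median gene. No member was 1.5-fold higher or lower, against 4.17% and 0.0318% of tested genes, and 23 were 1.2-fold lower, against 2.7%. That count was 13 of 52 against genes of similar abundance and 8 of 50 against genes of similar transcript length, again without a share of all tested genes on those scales. HIST1H1T, on few reads, was the lowest (-0.52 ± 0.22), followed by HIST1H4H (-0.42 ± 0.02). Between PEN-WT and PEN-MUT the median was -0.06, with 47 of 52 below the median gene, and no member was 1.5-fold higher or lower, against 0.898% and 0.0159% of tested genes. Set against genes of similar transcript length, this median turned to 0.0059, with 27 members above and 23 below. The extremes of this pair were HIST3H2BB (-0.22 ± 0.05) and HIST1H1T (0.16 ± 0.20).

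The order of the libraries can also be read without the median gene, from the share of all gene reads that the members took. It was 0.973% in PEN-FFW, 1.14% with PEN-WT and 1.18% with PEN-MUT, against 1.08% in PEN. Each class showed the same order, with PEN-FFW lowest and PEN-MUT highest. H2B genes took the most, with 0.277% of reads in PEN-FFW, 0.328% with PEN-WT and 0.337% with PEN-MUT, against 0.312% in PEN. H4 genes took 0.127% in PEN-FFW, 0.156% with PEN-WT and 0.161% with PEN-MUT, against 0.148% in PEN. The exact 95% intervals of the total share, 0.969% to 0.976% in PEN-FFW and 1.07% to 1.08% in PEN, do not meet, but they cover the counting of reads alone. Summed over each class, the difference between PEN-FFW and PEN was -0.16 for H1, -0.17 for H2A, -0.23 for H2B, -0.22 for H3 and -0.28 for H4, so the sums and the medians over genes gave similar sizes.

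**Figure D3:**
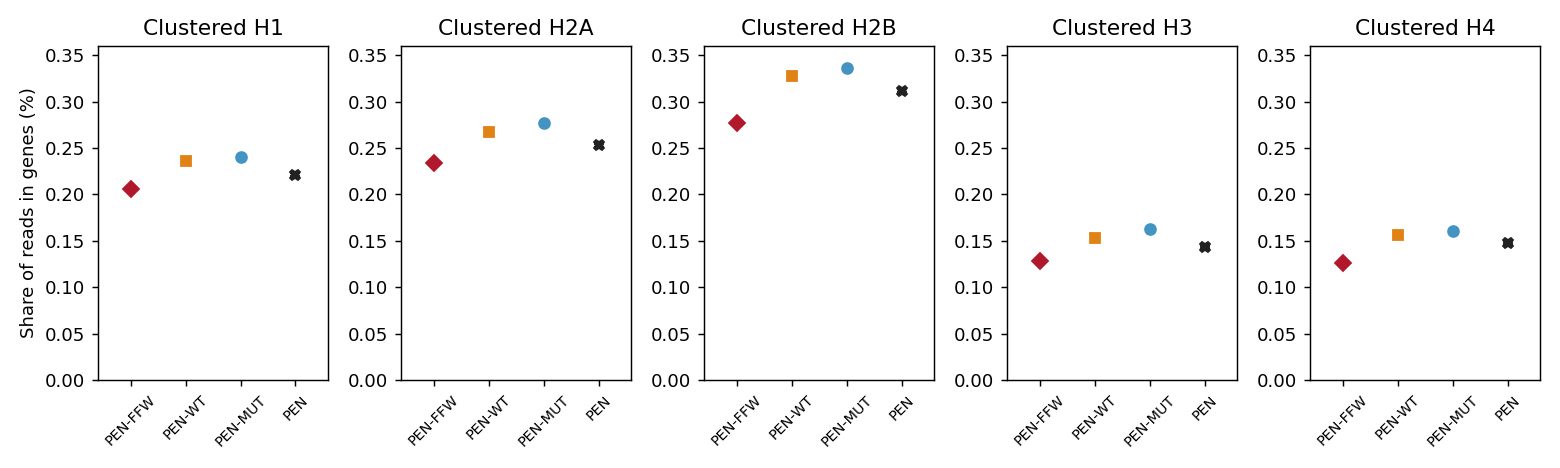
Share of all reads in genes (%) taken by the clustered genes of each histone class in the PEN-FFW, PEN-WT, PEN-MUT and PEN libraries, from 0 on the vertical axis; the exact 95% intervals are smaller than the symbols. In each class PEN-FFW is lowest and PEN-MUT highest, as for H2B with 0.277% in PEN-FFW, 0.337% in PEN-MUT and 0.312% in PEN.

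Along chromosome 6 the HIST1 genes fall into 3 groups in the table. The median of PEN-FFW minus PEN was -0.22 for the 23 tested genes of the first group (chr6:25723625-26285866 of GRCh37), -0.25 for the 5 of the second (chr6:27093676-27115341) and -0.15 for the 16 of the third (chr6:27775257-27861669). The lower values were thus found in each group, and the run at the floor lies within the first.

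The head-to-head genes gave a closer view, since both genes of a pair share 1 promoter region. There were 10 pairs of an H2A and an H2B gene with coding starts 304 to 382 bases apart, and both genes were tested in 9. In PEN-FFW minus PEN the H2B gene was lower than its H2A partner in 8 of the 9. Of these 8, HIST2H2BE (-0.127 ± 0.02) and HIST2H2AC (-0.121 ± 0.02) lay within their counting errors of each other. So did HIST3H2BB (-0.13 ± 0.06) and HIST3H2A (-0.0028 ± 0.08). The widest gap was between HIST1H2BM (-0.43 ± 0.05) and HIST1H2AJ, which had 1243 normalized counts with PEN-FFW, 1703 with PEN-WT and 1767 with PEN-MUT, against 1581 in PEN (-0.08 ± 0.05). HIST1H2BJ (-0.37 ± 0.02) and HIST1H2AG (-0.17 ± 0.02), the pair whose promoter is printed above, also stood apart by more than their counting errors. The exception was HIST1H2BL (-0.10 ± 0.04) with HIST1H2AI (-0.13 ± 0.03), also within their counting errors of each other. In PEN-FFW minus PEN-MUT the H2B gene was the lower in 8 of 9 as well, in PEN-WT minus PEN in 6 and in PEN-MUT minus PEN in 5. Against PEN-MUT the exception was HIST2H2BE (-0.13) with HIST2H2AC (-0.27), and both counts of 8 share the PEN-FFW library. The partners also differ in GC content. Except for HIST1H2BN (59.2%, against 59.1% for HIST1H2AK), the H2B gene of each tested pair had the lower GC content. In PEN-FFW minus PEN, the median of tested genes grouped by GC content was 0.06 around 56.1% and 0.18 around 61.3%. The part of GC content in these pair counts was not tested.

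The members were also split by features read from sequence. The 29 tested members with the core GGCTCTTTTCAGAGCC had a median of -0.18 in PEN-FFW minus PEN, the 6 with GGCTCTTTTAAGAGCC -0.28, the 8 with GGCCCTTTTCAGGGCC -0.27 and the 2 with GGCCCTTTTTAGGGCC -0.18. Among H2B genes with a RefSeq promoter, the 9 with an octamer had a median of -0.28 and the 4 without one -0.14. Among H2A genes it was -0.18 for the 9 with an octamer and -0.0099 for the 3 without one. The 9 tested members known to make polyadenylated forms had a median of -0.15, and the other 43 had -0.21. Groups of 2 to 9 genes give no firm order, and every one of these medians was below 0.

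Over all tested genes the differences between libraries moved with transcript length, abundance and GC content, and the members differ from the median tested gene in all 3. Their median transcript had 486 bases, against 3395 for tested genes, and their median GC content was 58.1%, against 48.2%. In 20 bins of length, the shortest bin held 49 of the 50 members with a length, and the median of all its genes was -0.11 in PEN-FFW minus PEN, 0.04 in PEN-MUT minus PEN and -0.15 in PEN-FFW minus PEN-MUT. Set against the median of their own length bin, the members' medians were -0.08 in PEN-FFW minus PEN, 0.08 in PEN-MUT minus PEN and -0.18 in PEN-FFW minus PEN-MUT. The most abundant bin, with 17 members, had a median of -0.17 in PEN-FFW minus PEN, and against their own abundance bins the members' median was -0.09. Against their own GC bins it was -0.27, where the medians of the 3 bins with most members were 0.06 to 0.10. The members' medians kept their sign in PEN-FFW against PEN and against PEN-MUT in each kind of bin, with a size from -0.08 to -0.27 against PEN and from -0.18 to -0.40 against PEN-MUT. Each property was binned alone, and the shortest bin had a median length of 638 bases, longer than the members' 486. What the 3 properties account for together was not tested.

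**Figure D4:**
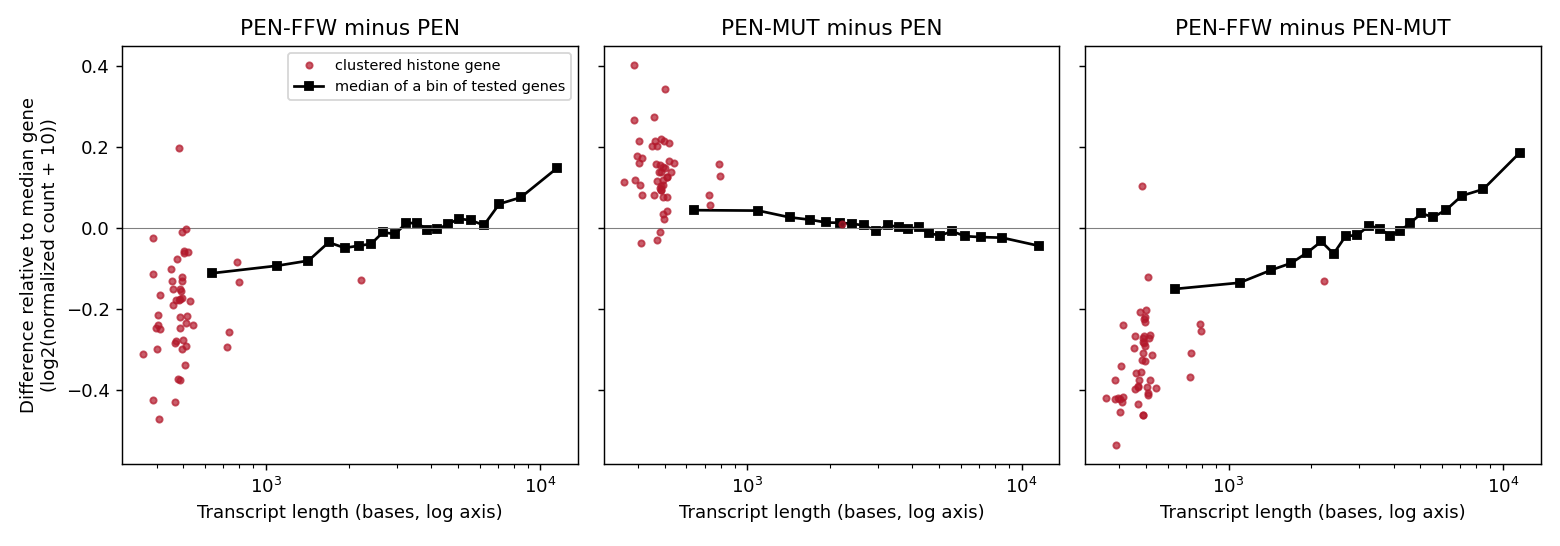
Difference relative to the median tested gene, on the log2(normalized count + 10) scale, against transcript length in bases (log axis) for the clustered histone genes (red points) and for the median of each of 20 bins of tested genes (black squares), in 3 pairs of libraries. The bin of the shortest genes is at -0.11 in PEN-FFW minus PEN and -0.15 in PEN-FFW minus PEN-MUT, and in these 2 panels most histone genes are shorter and lower than that bin's median.

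Genes that serve the histones were set beside them by fixed lists. The replication-independent histone genes, most of which make polyadenylated mRNAs outside S phase as well, had a median of -0.07 in PEN-FFW minus PEN over 10 tested of 12, with none 1.2-fold lower, against 9.87% of tested genes, and H3F3A at the floor in all 4 libraries. H1F0, the linker histone of resting cells, had 8421 normalized counts with PEN-FFW, 11596 with PEN-WT and 9601 with PEN-MUT, against 8548 in PEN. Its difference from PEN was 0.25 ± 0.02 in PEN-FFW and 0.41 ± 0.02 in PEN-WT, where the clustered H1 genes had medians of -0.19 and 0.09. H3F3B, which encodes the replacement histone H3.3, had 14425 in PEN-FFW, 19533 with PEN-WT and 20649 with PEN-MUT, against 19660.0 in PEN (PEN-FFW minus PEN, -0.18 ± 0.01).

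The 19 genes of histone mRNA transcription and 3′ end processing had a median of -0.13 in PEN-FFW minus PEN, with 4 of them 1.2-fold lower and 1 higher, against 9.87% and 20.8% of tested genes. SLBP, the stem-loop binding protein, had 3115 normalized counts with PEN-FFW, 4122 with PEN-WT and 4330 with PEN-MUT, against 4105 in PEN (-0.13 ± 0.03). NPAT had 1677 in PEN-FFW, 2281 with PEN-WT and 2102 with PEN-MUT, against 2233 in PEN (-0.14 ± 0.04). Both were thus below the median gene in PEN-FFW by about as much as their list. LSM10, a subunit of the U7 particle that cuts histone pre-mRNA, was the lowest of the list (434 in PEN-FFW, 602 with PEN-WT and 611 with PEN-MUT, against 647 in PEN; -0.30 ± 0.08). SYMPK, the scaffold of the cutting complex, was the highest (4963 in PEN-FFW, 5177 with PEN-WT and 4882 with PEN-MUT, against 4661 in PEN; 0.36 ± 0.03).

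Histone chaperones, which carry histones to DNA, had a median of -0.08 over 19 tested genes, with 4 of them 1.2-fold lower and 2 higher, against 9.87% and 20.8% of tested genes. SUPT16H, a subunit of the FACT complex, was lowest, with 16803 normalized counts with PEN-FFW, 23354 with PEN-WT and 25224 with PEN-MUT, against 26044 in PEN (-0.36 ± 0.01). TONSL, which reads newly made histone H4, was highest, with 5540.1 in PEN-FFW, 5022 with PEN-WT and 4551 with PEN-MUT, against 4452 in PEN (0.58 ± 0.03). Of the 19 chaperones, 14 were below the median gene, and of the 52 clustered histone genes 50 were.

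The 31 DNA replication genes had a median of -0.14 in PEN-FFW minus PEN, with 25 below the median gene, 3 of the 31 1.2-fold lower and 1 higher, against 9.87% and 20.8% of tested genes. RRM2, which makes the DNA building blocks, had 8074 normalized counts with PEN-FFW, 11128 with PEN-WT and 12094 with PEN-MUT, against 13140.3 in PEN (-0.43 ± 0.02). POLE, a replicative DNA polymerase, had 9402 in PEN-FFW, 8733 with PEN-WT and 8426 with PEN-MUT, against 8825 in PEN (0.36 ± 0.02). In PEN-WT minus PEN the replication genes had a median of -0.06 and the histone genes 0.06. Of 5 tested RNAs without a usual poly(A) tail, the median was 0.30 in PEN-FFW minus PEN. RPPH1, the RNA of RNase P, had 430961 in PEN-FFW, 562811 with PEN-WT and 573552 with PEN-MUT, against 531134 in PEN (-0.03), and NEAT1, a nuclear RNA, had 1939 in PEN-FFW, 1141 with PEN-WT and 897 with PEN-MUT, against 1098 in PEN (1.08 ± 0.05). Whether poly(A) selection or depletion of ribosomal RNA was used is not given in the sources used here, and its part in the histone values was not tested. In these bulk libraries, fewer cells in S phase and less histone mRNA in each such cell cannot be told apart. Nor can either be told apart from the shifts with transcript length and abundance seen over all tested genes.

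**Figure D5:**
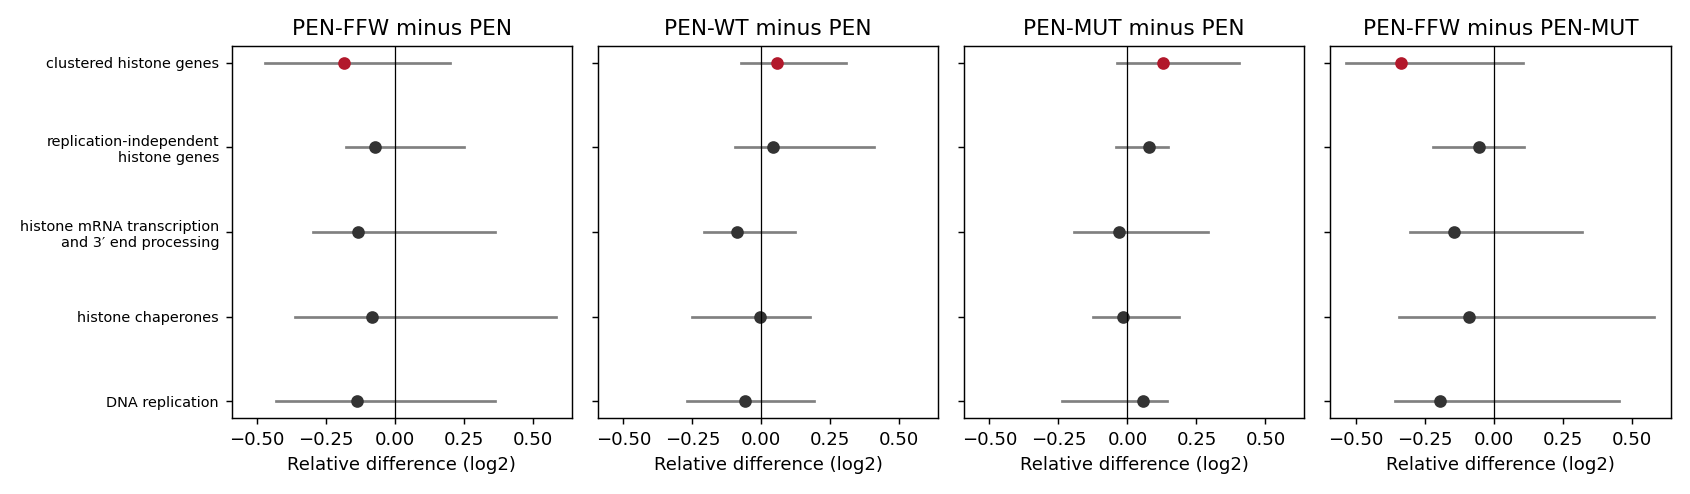
Median (dot) and full range (line) of the difference relative to the median tested gene, in log2(normalized count + 10), for the clustered histone genes (red) and 4 fixed lists of related genes, in 4 pairs of libraries with 1 library per peptide. The clustered histone genes have the lowest median in PEN-FFW minus PEN (-0.19) and in PEN-FFW minus PEN-MUT (-0.33) among these 5 lists, and the highest in PEN-MUT minus PEN (0.13). Against genes of similar transcript length the histone median in PEN-FFW minus PEN was -0.08, and the other lists were not set against such genes.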

How the data were processed

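SNU398 RNA was sequenced paired-end from 1 library per peptide; the other 3 samples of the series, from chromatin immunoprecipitation, are not analysed here. The submitters' processing notes name STAR 2.4.0i, featureCounts 1.5.0-p1 and the build hg19, which is GRCh37. No source used here gives the annotation, the strand setting or the normalization, so reads of overlapping, antisense or near-identical genes cannot be told apart. The deposited values are on a log2 scale. In each column, 2 raised to the value divided by 1 factor (0.923 for PEN-FFW, 0.776 for PEN-WT, 1 for PEN-MUT, 0.840 for PEN) gave whole reads for 100% of values above the floor, within 0.1 read, and values under 5 had been set to 5. Genes averaging 50 normalized counts or more were kept, and differences used a pseudocount of 10, which understates the change of low genes, and were centred on the median kept gene. The errors follow from the Poisson law of the reads alone; reads are not independent molecules. With 1 library per peptide no replicate could be left out and no p-value was computed. The members and the lists were chosen with earlier results of these data known. The genes named are the 3 most abundant tested members of each class, the 4 highest and 4 lowest for each peptide against PEN, the tested HIST3 and HIST4 genes, the members beside the limit of 50, SLBP, NPAT and the extremes of each list; others were named after their values were seen. Lengths, GC content, positions and stem-loops came from GRCh37 with GENCODE release 44, and promoters from RefSeq GRCh38.p14. A stem-loop was a run of 16 bases with G at the first and second place, T at the sixth and eighth, A at the eleventh and C at the last 2, and at least 5 of 6 stem pairs, G with T included. Alternatives changed the pseudocount, filter, centring and scaling, and centred within 20 bins of GC content, length or abundance. Analyses used Python 3.11.15 with pandas 2.3.3, NumPy 2.4.6, SciPy 1.17.1 and matplotlib 3.10.9, and were tested on simulated data.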

Additional observations from a re-analysis of the deposited data

How the results depend on the processing

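No paired analysis was possible because each peptide had 1 library. Of the alternative values, 57 moved, 2 reversed and 61 stayed near the reported ones; a further 102 are counts of 0 that stayed at 0 and say nothing of stability. The count of members 1.2-fold higher in PEN-FFW than in PEN was 1 in place of 0 with no filter on low values and within bins of transcript length. Values as deposited, not centred, carry the lower median gene of PEN-FFW. The members' median was -0.46 against PEN, -0.63 against PEN-MUT and -0.56 against PEN-WT, and 0.086 for PEN-WT against PEN. On that scale 50 members were 1.2-fold lower in PEN-FFW against PEN and 52 against PEN-WT. The median tested gene itself was -0.27 against PEN and -0.30 against PEN-MUT and PEN-WT, which is past the 1.2-fold limit. Members 1.5-fold lower numbered 6, 33 and 18 against PEN, PEN-MUT and PEN-WT. With no filter on low values, the medians of PEN-FFW were -0.40, -0.57 and -0.45 against PEN, PEN-MUT and PEN-WT. For PEN-WT against PEN-MUT the median was -0.042. Then 50 and 52 members were 1.2-fold lower against PEN and PEN-WT, and 6, 33 and 9 were 1.5-fold lower against PEN, PEN-MUT and PEN-WT. In PEN-FFW against PEN, 3 of the 73 members stood above the median of all genes and 52 below. The 18 members at the floor stood at that median, so centring took out no shift there. This setting is thus close to the uncentred one. Within bins of GC content, the median was -0.27 for PEN-FFW against PEN, -0.40 against PEN-MUT and -0.11 for PEN-WT against PEN-MUT, it turned to -2.91e-05 for PEN-WT against PEN, 28 members were 1.2-fold lower in PEN-FFW than in PEN, 2 were 1.2-fold higher in PEN-MUT than in PEN, and 1 and 2 were 1.5-fold lower in PEN-FFW against PEN and PEN-MUT. Within bins of abundance, the medians of PEN-FFW were -0.085, -0.24 and -0.18 against PEN, PEN-MUT and PEN-WT, those of PEN-WT 0.090 against PEN and -0.031 against PEN-MUT, with 8, 21 and 13 members 1.2-fold lower in PEN-FFW and 1, 4 and 1 members 1.5-fold lower. Within bins of transcript length, the medians of PEN-FFW were -0.081, -0.18 and -0.19 with 4, 11 and 8 members 1.2-fold lower, PEN-MUT and PEN-WT stood at 0.083 and 0.091 against PEN, PEN-WT against PEN-MUT turned to 0.0059, and 2 members were 1.2-fold higher in PEN-MUT. With median-ratio factors the median of PEN-FFW against PEN-WT was -0.28 and 1 member was 1.5-fold lower, as was 1 with a pseudocount of 1. Without its most abundant gene, the H1 sum was -0.22, 0.079 and 0.022 for PEN-FFW, PEN-MUT and PEN-WT against PEN, the H3 sum -0.19, 0.19 and 0.10, and the H2B sum 0.051 for PEN-WT against PEN. The counts in this section have no share of all tested genes on the same scale beside them. The bins and the 1.2-fold limit, apart from GC content, were added after the values were seen. Apart from the centring described above, the cause of these moves was not tested. A floor of at most 6.44 reads limits what can be said of members at the floor.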
